A study of Mus musculus with 4 samples.

Results

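Of the 1192 genes in the tables whose symbol begins with Mir and a digit or with Mirlet, 9 were above 0 in all 4 brain RNA-seq libraries: Mir703, Mir1949, Mir124a-1hg, Mir124-2hg, Mir9-3hg, Mir22hg, Mir99ahg, Mir670hg and Mir17hg. They were chosen by name and by having FPKM (a fragment count divided by transcript length and by sequencing depth), summed over the transcripts of a gene, above 0 in every library, so their detection is a condition of choice and not a finding. The tables hold 51905 genes, of which 21514 met the same condition. The names of the 9 do not mean that microRNAs were measured. 7 of the 9 are long non-coding transcripts that carry or surround microRNA hairpins (the ending hg stands for host gene), and only 2 consist of a single row shorter than 200 bases.

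The study profiled the brain of wild-type mice of 4 kinds: C57BL/6 (B6), the common laboratory strain; CAST/EiJ (CAST), an inbred strain derived from a different wild subspecies of the house mouse; and the reciprocal first-generation hybrids, F1i with the label C57BL/6 x CAST/EiJ and F1r with the label CAST/EiJ x C57BL/6. Which strain was the mother of which hybrid is not stated in the labels, and neither age nor sex is given. Each kind is 1 library made from pooled RNA of the left brain hemispheres of 5 mice, although the design text says whole brain. The library kit keeps the strand of the RNA. With 1 library per group there is no spread between animals or libraries to set a difference against, so no test was run and every ratio below compares libraries, not strains.

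A microRNA is cut in steps from a longer RNA. In the nucleus the Drosha and Dgcr8 complex releases a short hairpin from the primary transcript, exportin 5 (Xpo5) carries it to the cytoplasm, Dicer1 trims it to a short duplex, and 1 strand is loaded into an Argonaute protein, where its seed (bases 2 to 8) finds target messenger RNAs. The primary transcript can hold the hairpin in an exon, in which case cutting destroys the spliced host, or in an intron, in which case host and microRNA can both be made. In brain, miR-124 is the classic neuronal microRNA and miR-9 is known from neural progenitors and neurons, while let-7c, miR-99a and miR-125b come from a shared locus and the miR-17-92 cluster is known from dividing cells.

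The hairpins within the host genes are what ties the 9 names to microRNAs. Mature products taken from RefSeq (GRCm38.p6) are therefore shown here 5′ to 3′ with the seed in capitals. The mature sequences counted here came from 15 of the 19 hairpin genes looked for. They were 28 mature sequences with 26 different seeds. Mir124a-1, Mir124a-2, Mir3078 and Mir1949 were not in this count and are named only. Their place outside the count is not given as absence from RefSeq. Both arms are shown for miR-9 and 1 arm for each of the others except miR-129b, which is not shown.
miR-9-5p: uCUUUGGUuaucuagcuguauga
miR-9-3p: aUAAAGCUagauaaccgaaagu
miR-22-3p: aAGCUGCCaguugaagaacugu
miR-670-5p: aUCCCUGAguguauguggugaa
miR-129-5p: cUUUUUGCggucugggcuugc
miR-99a-5p: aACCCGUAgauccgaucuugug
let-7c-5p: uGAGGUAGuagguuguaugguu
miR-125b-5p: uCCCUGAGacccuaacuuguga
miR-17-5p: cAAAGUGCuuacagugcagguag
miR-20a-5p: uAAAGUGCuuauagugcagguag
miR-18a-5p: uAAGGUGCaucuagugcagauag
miR-19a-3p: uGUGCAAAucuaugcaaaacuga
miR-19b-3p: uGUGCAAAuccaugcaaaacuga
miR-92a-3p: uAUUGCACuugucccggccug
miR-703: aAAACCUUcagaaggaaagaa

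Within the 6-hairpin cluster of Mir17hg, 2 pairs shared a seed: miR-17-5p and miR-20a-5p both carry AAAGUGC, and miR-19a-3p and miR-19b-3p both carry GUGCAAA. No other seed occurred more than once among the 28. The 28 hold no sequence for Mir124a-1 or Mir124a-2, the miR-124 hairpins of Mir124a-1hg and Mir124-2hg. Whether these 2 hosts share a seed therefore could not be read from the 28. The whole hairpins of Mir22, which lies in an exon of its host, and of Mir9-3, which lies in an intron, are shown with both mature arms in capitals because these 2 arrangements recur in the results. Mir22 lies at chr11:75463716-75463810 and Mir9-3 at chr7:79505264-79505353, both on the plus strand of GRCm38.p6.
Mir22: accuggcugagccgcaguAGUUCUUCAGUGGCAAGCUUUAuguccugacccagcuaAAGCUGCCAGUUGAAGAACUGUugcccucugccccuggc
Mir9-3: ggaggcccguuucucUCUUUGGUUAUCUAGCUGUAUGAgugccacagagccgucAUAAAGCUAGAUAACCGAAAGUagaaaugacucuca

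The tables give FPKM and no counts. Low values of long transcripts lie at the worth of 1 fragment, and from these CAST had 0.706 times the depth of B6, F1i 0.795 times and F1r 0.712 times. Between 46.0% (B6) and 48.5% (CAST) of transcript rows were at 0. Defining markers of neurons, astrocytes, oligodendrocytes, microglia, endothelium, choroid plexus and blood were above 0 in every library, and the liver marker Alb was at or under 0.272 FPKM. The fast-muscle myosin Myh4 read 0.889 FPKM in B6 against at most 0.0495 in the other libraries, and the oligodendrocyte gene Mobp read 280 FPKM in B6 and 102 in CAST. The part of such shifts in the results below was not tested. In bulk tissue, fewer cells of a type and less RNA per cell cannot be told apart.

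Short microRNA rows were almost empty. Of 1183 microRNA-named rows under 200 bases, 5 (0.423%) were above 0 in any library, against 425 of 5873 other rows of that length (7.24%). In the range of 60 to 99 bases, where most hairpin rows lie, none of 870 microRNA-named rows was above 0 in any library and 94 of 1311 other rows (7.17%) were. In all, 1177 of the 1192 genes were at 0 in every library, 3 were above 0 in 1 library, 3 in 2 libraries and none in exactly 3. The 17 annotated hairpins that lie within the spans of the 7 host genes each have a row of their own, and all 17 of those rows were at 0 in all 4 libraries. The values of the 7 hosts are therefore values of the long transcripts. A 0 in these tables can be a failed estimate: Dgcr8, which every cell needs to make microRNAs, was itself listed at 0 for all its transcripts in every library. An empty hairpin row is thus given as listed at 0, not as absence of the RNA.

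The genes just outside the choice were Mir1983 at 22.3 FPKM in B6 and 14.6 in F1i and 0 in the other libraries, Mir1897 at 1.10 in B6 and 0.109 in F1r, and Mir155hg, the host of the immune microRNA miR-155, at 0.0309 in CAST and 0.0274 in F1i. Mir142hg (0.772 FPKM in F1i), Mir546 (8.23 in CAST) and Mir8091 (13.2 in CAST) were each above 0 in that library alone. Just inside were Mir17hg, whose lowest value was 0.179 FPKM, Mir670hg at 3.07 and Mir99ahg at 4.32.

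Levels of the 9 genes ran from 0.179 to 1076 FPKM over all libraries. The 2 short rows, Mir703 and Mir1949, had the highest means, at 456 and 315 FPKM. FPKM of a row shorter than a usual sequencing fragment is set largely by its length correction, so these means cannot be ranked against those of the hosts. Among the hosts, the order by mean was Mir124a-1hg (29.9), Mir124-2hg (20.4), Mir9-3hg (9.25), Mir22hg (7.36), Mir99ahg (5.40), Mir670hg (4.41) and Mir17hg (0.251). The ranges over the 4 libraries overlapped between the 2 miR-124 hosts, between Mir9-3hg and Mir22hg and between Mir99ahg and Mir670hg, and did not overlap between the other neighbours in this order.

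**Figure D1:**
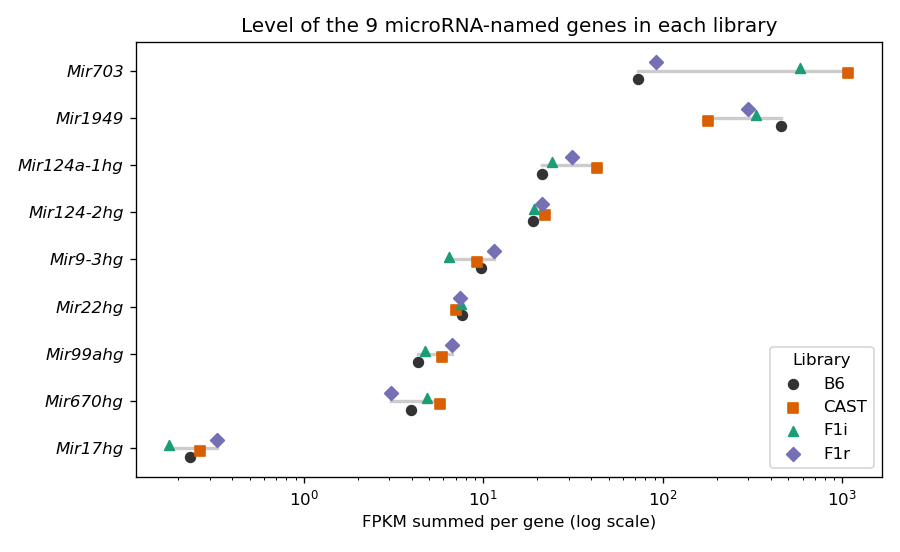
FPKM summed per gene (x axis, log scale) of the 9 genes (y axis) in each of the 4 libraries, 1 point per library, with a grey bar from the lowest to the highest. Mir703 spans 72.3 to 1076, whereas the 4 points of Mir22hg lie between 7.01 and 7.58.

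The first comparison was of the 2 inbred strains. Whether sequence differences between CAST and the genome build used changed the CAST and hybrid values was not tested. Mir703 and Mir124a-1hg were at least 2-fold higher in CAST than in B6 and Mir1949 was at least 2-fold lower, which is 3 of 9. Over all 21514 genes above 0 in every library, 19.6% were at least 2-fold apart in this comparison, 11.2% higher and 8.43% lower. Genes with low values are often far apart: over the 13896 genes with a mean of at least 1 FPKM, which all members but Mir17hg reach, the share was 8.38%. Among the 155 other genes whose rows are all under 200 bases it was 26.5%, and among the 1434 other genes that GENCODE tags as hosts of small RNAs it was 9%. Among the 1802 other long non-coding genes, the class of most members, it was 40.6%. The median log2 ratio of CAST to B6 was 0.22 over the 9 genes and 0.06 over all genes. The 6 remaining hosts had log2 ratios between -0.11 (Mir22hg) and 0.54 (Mir670hg).

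Mir703 read 72.3 FPKM in B6 and 1076 in CAST, with 584 in F1i and 92.1 in F1r. CAST and F1i were high, and B6 and F1r were low, which is the widest range of the 9. CAST was 14.9-fold above B6, and F1i was 6.34-fold above F1r. No fragment count was estimated for this row, which is under 200 bases, so how many fragments these ratios rest on is not known. The gene is a single row of 109 bases at chr5:98475556-98475664 (minus strand), typed as a microRNA in GENCODE M21, and it lies within the span of the protein-coding gene 1700007G11Rik on the opposite strand. 1700007G11Rik itself read 0.444 FPKM in B6 and 0.177 in CAST, with 0.187 in F1i and 0.383 in F1r. It was lower in the libraries where Mir703 was high, but all its values are small and no fragment count was estimated for it.

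The sequence of Mir703 is not unique. Of the 79 stretches of 31 bases in its row, 40 (50.6%) also occur on the same strand in another annotated transcript. Of the 79, 29 (36.7%) occur in Eef1a1. It encodes translation elongation factor 1 alpha. Other annotated microRNA genes also share stretches on that strand, namely Gm26377 (29), Gm24951 (24), Gm26384 (17) and Gm24276 (6). All of these were listed at 0 in every library. The longest run shared with Eef1a1 was 47 of the 109 bases, and the whole mature miR-703 shown above was found in 1 of 8 annotated Eef1a1 transcripts. Eef1a1 read 897 FPKM in B6 and 742 in CAST, with 829 in F1i and 763 in F1r, an order different from that of Mir703. How reads with several matches were counted is not given in the sources used here, and whether reads of Eef1a1 or of its copies in the genome contribute to the Mir703 row was not tested.

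Mir1949 read 455 FPKM in B6 and 179 in CAST, with 329 in F1i and 298 in F1r. B6 was highest and CAST lowest, 2.54-fold apart, with both hybrids between them. As for Mir703, no fragment count was estimated for this short row. The row is 141 bases long on chromosome 18, and the annotation types it as a small nucleolar RNA, a class that guides chemical modification of other RNAs; a separate 70-base row of the same symbol is typed as microRNA and was at 0 in every library. The 141-base row lies on the same strand inside Snhg4, a host gene of small nucleolar RNAs, and inside Gm28285. Snhg4 read 8.13 FPKM in B6 and 9.74 in CAST, with 8.30 in F1i and 7.82 in F1r, without the drop in CAST. Gm28285 read 6.24 in B6 and 1.84 in CAST, with 4.57 in F1i and 4.47 in F1r, with B6 highest and CAST lowest as in Mir1949. All 111 stretches of 31 bases in the row also occur on the same strand in AC121821.1, which GENCODE M21 annotates under another gene identifier over the span that the tables give for Snhg4. The identifiers of Snhg4 and Gm28285 in the tables were not found in that annotation, so these genes were not compared by sequence under their own names. Of the 111 stretches, 27 (24.3%) also occur on the same strand in Gm25907, another small nucleolar RNA gene, listed at 0 in every library.

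Mir124a-1hg, the primary transcript of 1 of the miR-124 copies, read 21.1 FPKM in B6 and 43.1 in CAST, with 24.2 in F1i and 31.3 in F1r. B6 was lowest, CAST highest and both hybrids lay between. The ratio of CAST to B6 was 2.04 on summed FPKM, only just past 2. It fell below 2 when each transcript was weighted by its length, a setting added after the data were seen (1.85, interval 1.74 to 1.97). It also fell below 2 with 1 added to FPKM (log2 ratio 0.995) and with median-ratio scaling (0.992). The interval is the 95% Clopper-Pearson interval of the ratio from about 1869 fragments in B6 and 2443 in CAST and covers counting error only, not the spread between mice or libraries.

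The sister gene Mir124-2hg differed less: 18.9 FPKM in B6 and 22.0 in CAST, with 19.3 in F1i and 21.3 in F1r. The same order of libraries held as in Mir124a-1hg, over a far narrower range. The CAST to B6 ratio was 1.17 on summed FPKM and 1.30 weighted by length (counting interval 1.21 to 1.40). The counting intervals of the 2 miR-124 hosts for CAST over B6 did not overlap.

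Mir22hg was the steadiest of the 9, at 7.58 FPKM in B6 and 7.01 in CAST, with 7.47 in F1i and 7.39 in F1r. Its highest and lowest library were 1.08-fold apart. Its log2 ratio of CAST to B6 was -0.11 as deposited and 0.06 with the libraries set to a common total, so its sign is not fixed. Weighted by length the ratio was 0.845 (counting interval 0.726 to 0.982). miR-22 is a broadly expressed microRNA whose hairpin lies in an exon of this transcript. Over 9.38% of its 31-base stretches the transcript shares sequence with Tlcd2, which overlaps it on the same strand and read at most 0.361 FPKM.

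Mir99ahg read 4.32 FPKM in B6 and 5.86 in CAST, with 4.71 in F1i and 6.72 in F1r. CAST and F1r were high, B6 and F1i low. Weighted by length, the CAST to B6 ratio was 1.51 (counting interval 1.29 to 1.76) and the F1r to F1i ratio 1.15 (0.988 to 1.35). On summed FPKM these ratios were 1.36 and 1.43, so which of the 2 comparisons was wider depended on how its transcripts were added up.

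Mir670hg read 3.95 FPKM in B6 and 5.75 in CAST, with 4.86 in F1i and 3.07 in F1r. CAST was highest, and F1r lay below both parents. Weighted by length, CAST was 1.63 times B6 (counting interval 1.27 to 2.08, from about 127 and 146 fragments) and F1r was 0.649 times F1i (0.482 to 0.866).

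Mir17hg, the host of the miR-17-92 cluster, read 0.233 FPKM in B6 and 0.264 in CAST, with 0.179 in F1i and 0.330 in F1r. The 2 hybrids were the lowest and the highest library. These values rest on about 36, 29, 22 and 36 fragments. The counting interval of the CAST to B6 ratio of 1.13 ran from 0.675 to 1.91, so no difference between the parents was detectable at this depth.

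**Figure D2:**
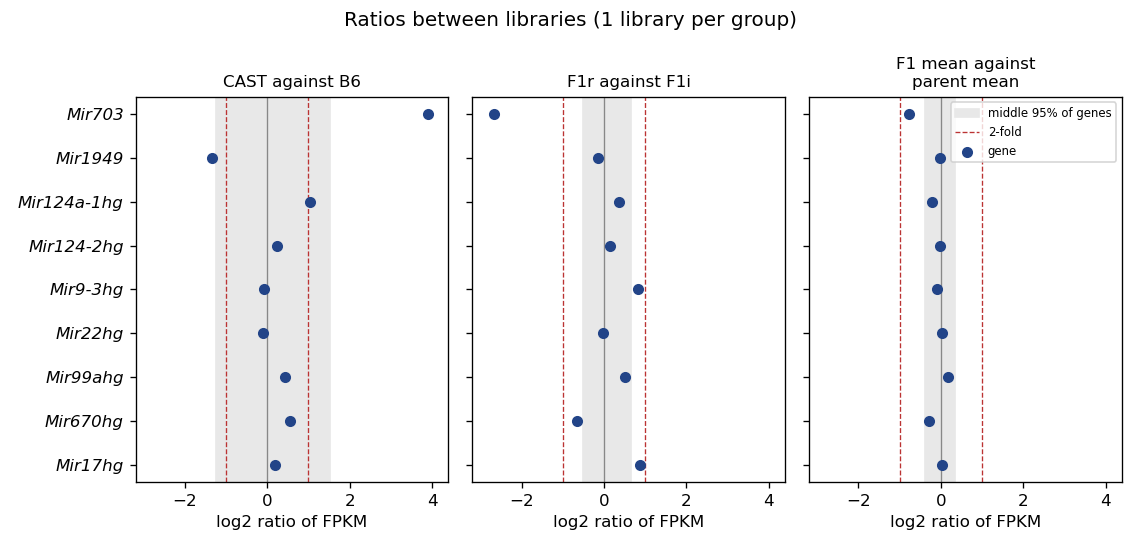
Log2 ratio of FPKM (x axis) of each of the 9 genes (y axis) in 3 comparisons, 1 point per gene, with the middle 95% of 13896 genes of mean at least 1 FPKM in grey and 2-fold in dashed lines. Mir703 lies at 3.90 for CAST against B6 and -2.66 for F1r against F1i, and no gene passes 2-fold for the hybrid mean against the parental mean.

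The second comparison was of the reciprocal hybrids, which share the same 2 genomes and differ in which strain was the mother. Mir703 alone was at least 2-fold apart, lower in F1r, which is 1 of 9 against 10.5% of all genes apart either way (6.71% higher and 3.78% lower). Over genes with a mean of at least 1 FPKM the share was 1.73%, among other genes under 200 bases 16.8%, among other small RNA hosts 3.97%, and among other long non-coding genes 23.6%. The median log2 ratio of F1r to F1i was 0.14 over the 9 genes and 0.05 over all genes. The next widest were Mir17hg at 0.88 and Mir9-3hg at 0.83, both higher in F1r, and Mir670hg at -0.66. For Mir17hg the counting interval of the 1.85-fold ratio ran from 1.05 to 3.26, and with the libraries set to a common total its log2 ratio was 1.01, past 2-fold.

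Mir9-3hg read 9.75 FPKM in B6 and 9.28 in CAST, with 6.47 in F1i and 11.5 in F1r. The parents lay close together, and the hybrids lay on either side of them. The F1r to F1i ratio was 1.78 on summed FPKM and 1.35 weighted by length (counting interval 1.16 to 1.58). The summed value gives each transcript the same weight whatever its length. The log2 ratio of CAST to B6 was -0.07 as deposited, 0.12 weighted by length and 0.10 with a common total, so the parents had no stable order.

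The third comparison set the mean of both hybrids against the mean of both parents. None of the 9 was 2-fold apart, against 4.61% of all genes and 0.497% of those with a mean of at least 1 FPKM, and the log2 ratios ran from -0.76 (Mir703, 338 FPKM against 574) to 0.17 (Mir99ahg). The median was -0.01 over the 9 genes and -0.01 over all genes. Both hybrids lay between the parents in 5 of 9 genes (Mir703, Mir1949, Mir124a-1hg, Mir124-2hg and Mir22hg), against 36.5% of all genes and 41% of those with a mean of at least 1 FPKM. The share was 27.7% among other genes under 200 bases, 38.1% among other small RNA hosts and 32.3% among other long non-coding genes. For Mir22hg the parents were 1.08-fold apart, so its place between them rests on differences of a few percent. The other 4 genes had at least 1 hybrid outside the parental range: F1r above both in Mir99ahg, F1r below both in Mir670hg, and both hybrids outside on opposite sides in Mir9-3hg and Mir17hg.

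Where the hairpin lies in the transcripts that carry the FPKM differed between hosts. In Mir22hg and Mir17hg every annotated transcript holds its hairpins whole in an exon, so 100% of the FPKM was assigned to transcript models that contain the hairpin. Whether the RNA behind it was whole or cut at the hairpin was not measured. In Mir99ahg the 3 hairpins lie in an intron of only 3 of 16 transcripts, which made up 14.7% of the FPKM in B6 and 22.8% in CAST, with 14.8% in F1i and 18.8% in F1r. The other 13 transcripts do not reach across the hairpins. In Mir670hg, Mir670 lies in an intron of 4 transcripts that carried 81.1% of the FPKM in B6 and 80.5% in CAST, with 80.9% in F1i and 77.0% in F1r. Mir129-2, the second hairpin on the strand of Mir670hg, lies in an intron of transcripts carrying 10.6% in B6 and 30.5% in CAST, with 17.3% in F1i and 24.7% in F1r, and Mir129b lies on the opposite strand.

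**Figure D3:**
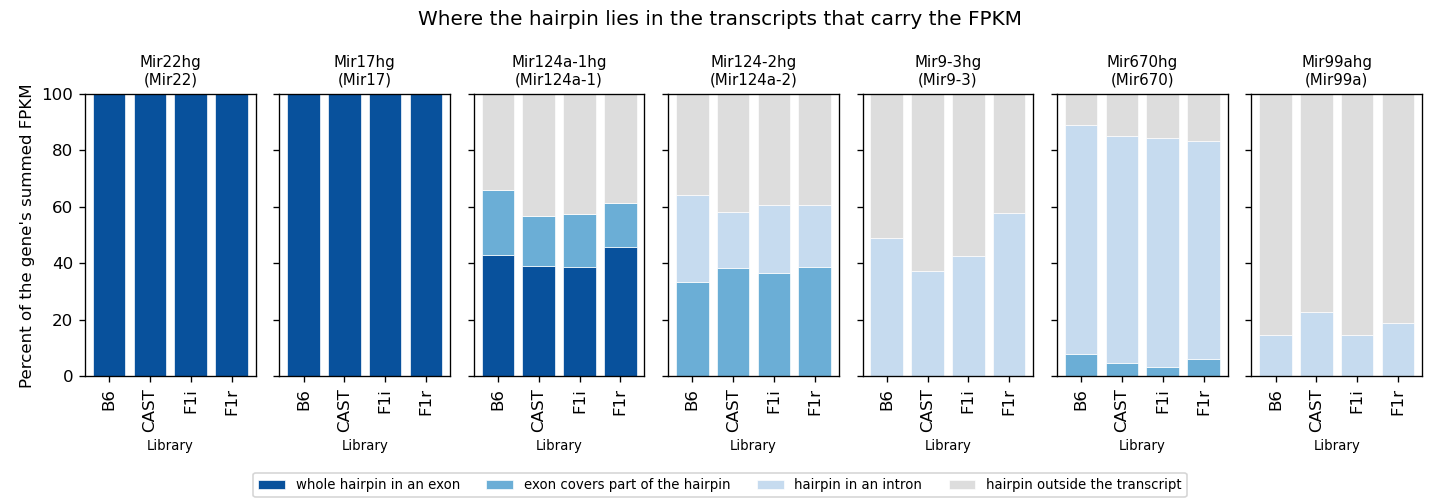
Percent of the summed FPKM of each host (y axis) in transcripts that hold the named hairpin whole in an exon, have an exon edge inside it, carry it in an intron or do not reach it, per library (x axis). Mir22hg and Mir17hg are at 100% exonic, and Mir99ahg has 14.7% to 22.8% in transcripts that span the hairpin.

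The higher Mir129-2 share in CAST lay in 1 transcript of Mir670hg, 1193 bases long, which read 0.419 FPKM in B6 and 1.75 in CAST, with 0.839 in F1i and 0.752 in F1r. These values stand for about 19, 57, 31 and 25 fragments. The 855-base transcript, the most abundant of the gene, read 2.78 in B6 and 2.88 in CAST, with 3.09 in F1i and 1.61 in F1r. So CAST was high in the longer transcript, whereas the low value of F1r came from the 855-base transcript.

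Mir9-3hg lies at chr7:79500026-79534403, and its starts were put in 2 groups, upstream and downstream of the Mir9-3 hairpin. The downstream starts run from 79515232 to 79527850. The 4 transcripts that begin at 79500026 to 79500121 carry the Mir9-3 hairpin in their first intron, and the 3 that begin at 79515232 or later lie downstream of it and do not include it. The upstream group read 4.78 FPKM in B6 and 3.47 in CAST, with 2.76 in F1i and 6.66 in F1r, and made up 49.1%, 37.4%, 42.7% and 57.9% of the gene. F1r was highest and F1i lowest. The downstream group read 4.97, 5.81, 3.71 and 4.84 in the same order of libraries, with CAST highest.

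The spread of the upstream group came mainly from its shortest transcript, 343 bases long, which read 2.96 FPKM in B6 and 1.06 in CAST, with 0.878 in F1i and 4.11 in F1r. These values stand for only about 20, 5, 5 and 19 fragments. Its libraries split as those of Mir703 did but the other way round, B6 and F1r high and CAST and F1i low. Without this transcript the upstream group read 1.82 in B6 and 2.41 in CAST, with 1.88 in F1i and 2.54 in F1r, and the highest and lowest libraries lay far closer together.

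**Figure D4:**
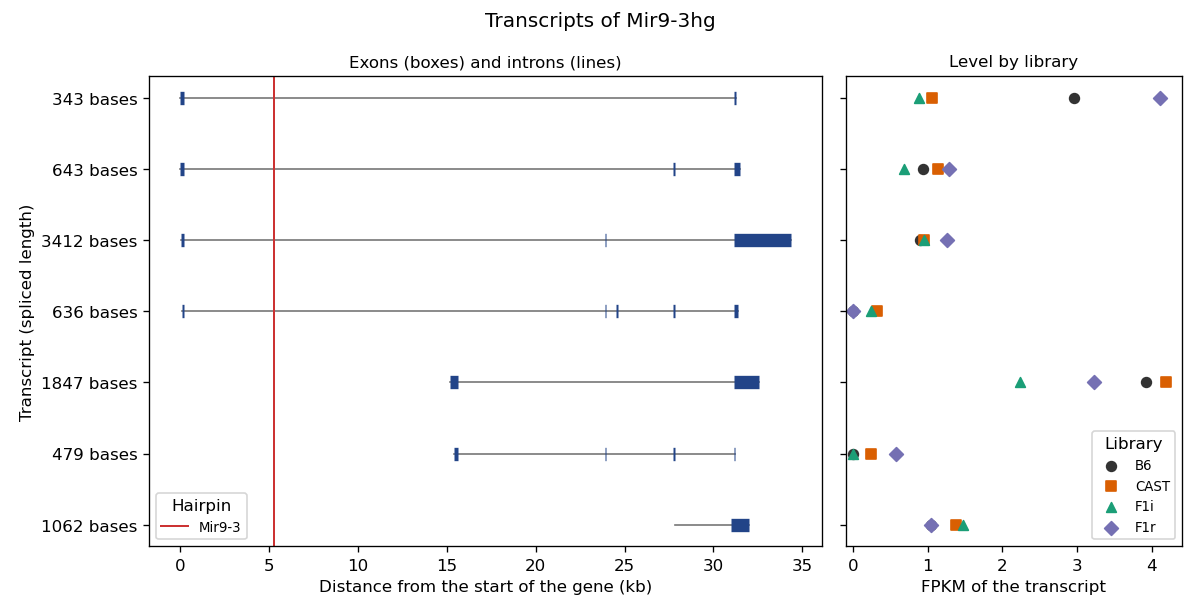
Annotated transcripts of Mir9-3hg, to scale in kb from the start of the gene, with exons as boxes, introns as lines and the hairpin as a red line, and the FPKM of each transcript in the 4 libraries at right. The hairpin lies in the first intron of the 4 transcripts with upstream starts, and the 343-base transcript has the widest spread, 0.878 to 4.11 FPKM.

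The RefSeq promoter windows of Mir9-3hg (GRCm38.p6) are shown with each CG in capitals because only transcripts from the upstream starts span the hairpin. The 1062-base downstream transcript begins at 79527850, outside both windows. The upstream window (chr7:79499776-79500075, plus strand) holds 35 CG and is 75% G or C. The downstream window (chr7:79515185-79515484, plus strand) holds 28 CG and is 70.7% G or C. The median over 32851 RefSeq promoter windows was 7 CG, with quartiles at 3 and 20, so both windows are CG-rich. TATAAA, the core of the TATA box, was found on neither strand of either window and occurs in 13.6% of all windows. TTCAGCACC, the core of the site of the neuronal repressor REST, was likewise found in neither and occurs in 0.371%.
Mir9-3hg upstream: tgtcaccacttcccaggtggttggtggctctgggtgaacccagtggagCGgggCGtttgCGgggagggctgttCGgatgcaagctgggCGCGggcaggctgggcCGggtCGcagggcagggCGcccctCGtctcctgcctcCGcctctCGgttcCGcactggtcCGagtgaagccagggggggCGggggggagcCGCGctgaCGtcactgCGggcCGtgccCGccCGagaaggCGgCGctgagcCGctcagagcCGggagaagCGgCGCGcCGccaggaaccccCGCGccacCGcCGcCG
Mir9-3hg downstream: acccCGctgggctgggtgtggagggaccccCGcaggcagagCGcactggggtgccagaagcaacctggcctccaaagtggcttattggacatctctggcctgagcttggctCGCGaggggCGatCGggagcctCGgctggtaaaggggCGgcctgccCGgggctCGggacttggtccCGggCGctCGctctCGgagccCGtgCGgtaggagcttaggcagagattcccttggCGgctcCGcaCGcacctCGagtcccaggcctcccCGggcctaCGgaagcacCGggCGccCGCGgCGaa

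Mir124a-1hg lies at chr14:64587331-64593961 and has 4 transcripts, all of them higher in CAST than in B6. The 4103-base transcript holds both Mir124a-1 and Mir3078 whole in its last exon and read 9.10 FPKM in B6 and 16.8 in CAST, with 9.41 in F1i and 14.4 in F1r. It carried most of the fragments of the gene, about 1649 in B6 and 2151 in CAST, and its CAST to B6 ratio was 1.85. A 684-base transcript ends inside the Mir124a-1 hairpin and read 4.84 in B6 and 7.69 in CAST, with 4.54 in F1i and 4.78 in F1r. The 370-base transcript at the far upstream end had the widest ratio, 3.21, from 4.17 FPKM in B6 and 13.4 in CAST, on about 33 and 75 fragments. So all 4 were high in CAST, and only the 370-base transcript was past 2-fold.

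**Figure D5:**
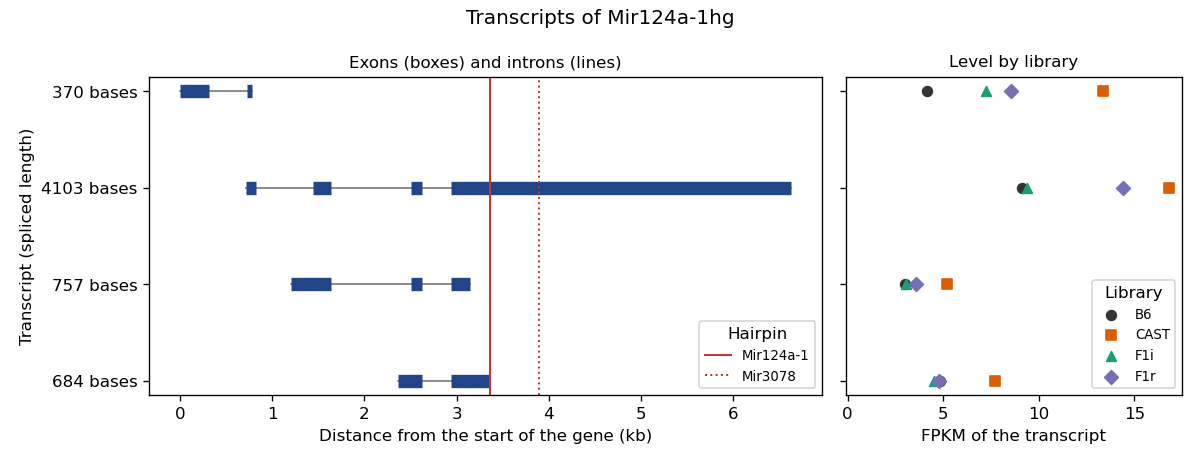
Annotated transcripts of Mir124a-1hg, to scale in kb from the start of the gene, with exons as boxes, introns as lines and the 2 hairpins as red lines, and the FPKM of each transcript in the 4 libraries at right. CAST is the highest library in all 4 transcripts, at 16.8 FPKM for the 4103-base transcript that holds both hairpins.

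In Mir124-2hg the 2 most abundant transcripts do not span the hairpin. The 3844-base transcript begins inside Mir124a-2 and read 6.28 FPKM in B6 and 8.48 in CAST, with 7.06 in F1i and 8.25 in F1r. The 1368-base transcript ends before the hairpin and read 6.75, 9.22, 7.57 and 8.33 in the same order of libraries. These 2 transcripts were thus close in level in every library, with CAST highest and B6 lowest in each. Transcripts that carry the hairpin in an intron made up 30.9% in B6 and 19.7% in CAST, with 24.0% in F1i and 22.1% in F1r.

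Several of the mature sequences shown above are also encoded elsewhere, so a host's level is only a share of the transcription behind a microRNA. miR-9 is encoded at 2 more loci with annotated host transcripts. Gm3764, around Mir9-1, read 14.2 FPKM in B6 and 24.5 in CAST, with 15.5 in F1i and 17.1 in F1r. C130071C03Rik, around Mir9-2, read 21.7, 23.0, 20.5 and 24.0 in the same order. Both lay above Mir9-3hg in every library. miR-125b is also encoded by Mir125b-1 within 2610203C20Rik, which read 8.26 in B6 and 12.2 in CAST, with 9.42 in F1i and 11.0 in F1r. The second locus of miR-129-5p, Mir129-1, lies in Gm3294, which was at or under 0.654 FPKM.

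The genes that turn these transcripts into microRNAs were compared next. Of 27 processing genes in the tables, 25 were above 0 in every library, and none was 2-fold apart in any of the 3 comparisons, against 8.38%, 1.73% and 0.497% of genes with a mean of at least 1 FPKM, so a count of none among 25 is near the background. Their median log2 ratios were 0.27, 0.14 and 0.02, against 0.06, 0.05 and -0.01 over all genes. The other two were Dgcr8, listed at 0 throughout, and Lin28a, at 0 in CAST and F1i. Drosha, the nuclear hairpin-cutting enzyme, read 10.4 FPKM in B6 and 9.91 in CAST, with 11.0 in F1i and 10.6 in F1r. Dicer1 read 6.19, 7.33, 7.01 and 7.70, and Xpo5 read 9.60, 8.81, 9.42 and 9.36 in the same order. Ago2, an Argonaute, read 7.24, 9.31, 7.75 and 9.24. Srrt, which links capped primary transcripts to Drosha, read 20.7 in B6 and 30.3 in CAST. The widest ratio of CAST to B6 in the list was that of Lin28b, an inhibitor of let-7 maturation, at 0.940 FPKM in B6 and 1.78 in CAST, with 1.41 in F1i and 1.88 in F1r, with a log2 ratio of 0.92.

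Families of microRNAs known from brain and other tissues, and repeat-rich families, were listed at 0. So were 1177 of all 1192 microRNA-named genes, and these zeros set no family apart. All 12 let-7 rows were at 0 in every library, as were 51 rows of the Dlk1-Dio3 imprinted cluster, 16 of the vascular, blood and microglial list, 16 of the 17-92 and paralogous clusters, 10 muscle, 7 choroid plexus and ciliated cell and 5 oligodendrocyte microRNAs and 81 of the repeat-rich mir-466, mir-467, mir-669 and mir-297 families. Of 26 names in the neuron-enriched list, 3 were above 0, and these were the hosts Mir124a-1hg, Mir124-2hg and Mir9-3hg. Of 10 genes named as microRNA hosts, 7 were above 0 in every library, and 1 was 2-fold apart between CAST and B6 (Mir124a-1hg), against 19.6% of all genes and 8.38% of those with a mean of at least 1 FPKM.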

How the data were processed

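RNA was extracted from pooled left hemispheres of 5 mice per group, 1 library per group, and the kit was strand-specific, per the labels' protocols. The authors deposited FPKM per transcript, 1 table per library. The submitters' processing notes list Trimmomatic 0.36, bcl2fastq 2.20, HISAT2, Cufflinks 2.2.1 and Cuffdiff, and name mm9 as build. Coordinates matched GRCm38: 127971 of 128603 transcripts (99.5%) were found in GENCODE M21 and 97.2% had the same start and end there. Whether reads were counted by strand, and how those with several matches were treated, is not given in the sources used here.

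FPKM was summed per gene and compared as ratios with no pseudocount; a gene at least 2-fold apart was counted. No test was run. Fragments per transcript were estimated as FPKM times length less 200 bases, over the worth of 1 fragment, which was read from transcripts of at least 1500 bases. For the 7 hosts they gave the length-weighted ratios and 95% Clopper-Pearson intervals, which cover counting error only. Scripts ran in Python 3.11.15 with pandas 2.3.3 and scipy 1.17.1, and were tested on simulated data. The simulation used genes with 1 transcript and left short rows empty, so short rows and sums over transcripts were not tested. Changes were planted only at a fold of 4 in genes with many fragments, so smaller or low-count changes were not tested. The members, lists and comparisons were chosen with earlier results of these data known. Named were the members with the highest means and widest ratios, hosts, members just inside and outside the choice, up to 6 genes of a list described, and marker genes. Genes overlapping or sharing sequence with a member, other loci of a mature sequence, and single transcripts were named after their values were seen. Alternatives were a pseudocount of 1, 2 scalings, filters on members, a fold of 4, a difference of mean log2 FPKM and length weighting.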

Additional observations from a re-analysis of the deposited data

How the results depend on the processing

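The 3 genes 2-fold apart between CAST and B6 became 1 among members inside no other gene, 1 at a fold of 4 and 1 among host transcripts alone, and 2 with a pseudocount of 1, with median-ratio scaling, among short rows and with length weighting. The members inside no other gene and the host transcripts are the same 7 genes, so these settings give the same results by construction. Mir703 was counted as inside 1700007G11Rik, although that gene lies on the opposite strand. For F1r against F1i, 1 gene became 2 with a common total (Mir17hg joined), 0 among members inside no other gene and 0 among host transcripts. Hybrid mean against parental mean gave 0 under every setting run. Both hybrids lay between the parents in 5 genes as deposited, in 3 of 7 inside no other gene, in 3 of 7 host transcripts, in 2 of 2 short rows, in 4 with a common total and in 6 with length weighting. Where members were left out or the fold was stricter, fewer could be counted by construction. For the pseudocount, the scalings and the length weighting the cause was not tested. The common total shifted the median log2 ratio of all genes by 0.17 for CAST against B6 and 0.13 for F1r against F1i. The settings with host transcripts alone, with length weighting and with a difference of mean log2 FPKM were chosen after seeing the data. A minimum of 5 fragments per hairpin was not run, since too few short rows were above 0 to read the worth of 1 fragment. No paired analysis was possible because each group has 1 library. No left-out-replicate check exists for the same reason. Depth limits Mir17hg and single low transcripts such as the 343-base one of Mir9-3hg. For Mir703 and Mir1949 fragments were not estimated, so how far depth limits their ratios is not known.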
